A study of Homo sapiens with 8 samples.

Results

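The insulin-like growth factor family was followed in a line of prostate epithelium and a line of prostate stroma, each with and without an extract of Rauwolfia vomitoria. The 10 genes are the ligand IGF1, the receptors IGF1R and IGF2R, and the binding proteins IGFBP1 to IGFBP7. They were chosen by symbol: a transcript cluster, the group of array probes that reads a gene or locus, was taken where the platform annotation names that gene alone. All 10 were found, with 1 cluster each, among 22465 genes named that way and 67528 clusters in all. IGF2 is not reported, since its cluster also carries other symbols.

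IGF1 and IGF2 are secreted ligands that signal growth and survival through IGF1R, a receptor tyrosine kinase. IGF2R, which is also the mannose 6-phosphate receptor of lysosomal enzymes, takes IGF2 into the cell and has no kinase. The IGFBPs hold the ligands outside the cell and can either withhold or deliver them, and proteases that cut the IGFBPs set the ligands free. In the prostate this system is known as a route between stroma and epithelium, with stromal ligand acting on epithelial receptor.

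Total RNA was hybridised to Affymetrix Human Transcriptome Array 2.0 chips, 8 in all, with 2 arrays in each of 4 groups. The groups were WPMY-1 cells, a prostate stromal myofibroblast line, under RWF extract at 250 μg/ml, WPMY-1 cells under vehicle, BPH-1 cells, an epithelial line from a hyperplastic prostate, under RWF extract at 250 μg/ml, and BPH-1 cells under vehicle, all for 24 h. WPMY-1 cells were kept in DMEM and BPH-1 cells in RPMI1640, both with fetal bovine serum, so line and medium cannot be told apart. Each line is a single cell line grown without the other, and the serum itself is a source of IGFs and IGFBPs that the arrays do not read.

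The deposited values were log2 expression per cluster and array. The arrays' medians lay between 4.5 and 4.58, and within a group the correlation across clusters was 0.995 to 0.997. Of 9 measured epithelial markers, 8 were lower in WPMY-1 than in BPH-1 vehicle cells, as 8.82% of all clusters were, and CLDN4 did not pass. Of 9 stromal markers, 8 were higher, as 7.82% of all clusters were. The smooth muscle actin ACTA2, which defines a myofibroblast, did not pass (0.18, adjusted p = 0.232). The leukocyte and endothelial markers PTPRC, CD68, PECAM1 and CDH5 passed in no comparison. Differences were tested with limma, with Benjamini-Hochberg adjustment over all clusters and a threshold of 0.05. No label says whether replicate arrays came from different cultures. The p-values therefore reflect array-to-array spread alone, possibly technical. There is no detection call, so a low value can be background, and fewer cells of a type and less RNA per cell cannot be told apart.

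Promoters of the genes on which the results below turn are printed first. RefSeq windows on GRCh38.p14, from 250 bases before to 50 after a transcription start, were at hand for 8 of the 10 genes, as 11 windows, and not for IGFBP1 and IGFBP7. IGF2R is shown because its log2 value under RWF lay above vehicle in both lines, IGFBP3 because its value under RWF lay below vehicle in WPMY-1 cells, and IGFBP4 because it differed between the lines. The IGF2R window is chr6:159968832-159969131 on the plus strand, and capitals mark CACGTG, the palindromic E-box. The IGFBP3 window is chr7:45921223-45921522 on the minus strand, and capitals mark TATATA. The IGFBP4 window is chr17:40443200-40443499 on the plus strand, and capitals mark TATAAA.
IGF2R: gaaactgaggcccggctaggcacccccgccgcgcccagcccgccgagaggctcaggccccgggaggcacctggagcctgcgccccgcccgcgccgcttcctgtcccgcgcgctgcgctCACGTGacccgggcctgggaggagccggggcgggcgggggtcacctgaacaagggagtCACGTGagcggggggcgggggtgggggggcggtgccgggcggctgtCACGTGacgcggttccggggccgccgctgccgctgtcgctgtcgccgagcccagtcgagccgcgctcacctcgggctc
IGFBP3: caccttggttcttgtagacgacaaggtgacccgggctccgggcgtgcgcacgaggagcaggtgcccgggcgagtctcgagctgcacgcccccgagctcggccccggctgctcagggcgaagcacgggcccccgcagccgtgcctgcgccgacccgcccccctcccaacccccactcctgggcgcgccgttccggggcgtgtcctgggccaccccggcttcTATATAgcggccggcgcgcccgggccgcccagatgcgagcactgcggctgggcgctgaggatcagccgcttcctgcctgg
IGFBP4: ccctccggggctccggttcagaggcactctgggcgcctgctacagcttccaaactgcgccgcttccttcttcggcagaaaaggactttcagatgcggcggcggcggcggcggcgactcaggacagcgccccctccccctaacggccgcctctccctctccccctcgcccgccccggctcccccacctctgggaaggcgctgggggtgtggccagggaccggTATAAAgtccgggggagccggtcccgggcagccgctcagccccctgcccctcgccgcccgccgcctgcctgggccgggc
The IGF2R window held CACGTG 3 times, beginning 132, 74 and 28 bases before the start. Of all 35116 RefSeq windows of this length, 7.26% held CACGTG at least once and 0.094% held it 3 or more times, and none of the other 10 windows of the family held it. CACGTG is the core of the sites read by MYC and by the MiT/TFE factors of lysosomal genes. The IGFBP3 window held TATATA beginning 30 bases before the start and the IGFBP4 window TATAAA beginning 29 bases before it. These letters stood on either strand in 3.99% and 11.5% of all windows. The GC box GGGCGG, read on both strands with overlaps counted, occurred 6 times in the IGF2R window. At least 1 stood in 45% of all windows and 3 or more in 15.8%. The letters G and C made up 78.7% of the IGF2R window, against a median of 58.7% over all windows. The shares of windows given here were not matched for that content. The ATF4-type letters TGATGNAA were found in none of the 11 windows (3.62% of all windows). The FOXO-type letters GTAAACA stood in the window of IGFBP6 and in 1 of the 2 windows of IGF1 (3.42% of all windows). A match is a description of the letters only.

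The first question was whether RWF extract moved the family in the stromal line. In WPMY-1 cells none of the 10 genes passed the adjusted threshold, where 1.53% of all clusters and 1.99% of the 22465 genes did. An unadjusted p under 0.05 was found for 6 of the 10, against 19% of all clusters and 21.7% of the 22465 genes. The smallest p-values belonged to IGF2R, with a higher value under RWF, and to IGFBP3, with a lower one. RWF and vehicle arrays did not overlap for 7 of the 10 genes, against 50.6% of all clusters and 58.5% of the 22465 genes. The median difference over the 10 genes was 0.11 on the log2 scale, beside 0.04 over all clusters.

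IGF1, the ligand, read 3.18 and 3.16 in RWF and 3.09 and 3.05 in vehicle WPMY-1 cells, and 3.10 and 2.98 in RWF and 3.06 and 3.07 in vehicle BPH-1 cells. All 8 arrays thus lay within 0.20 of each other, below every array's median over all clusters, and background cannot be told from expression there. Its differences between RWF and vehicle were 0.10 in WPMY-1 and -0.03 in BPH-1 cells (adjusted p = 0.508 and 1).

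IGF1R, the signalling receptor, read 8.31 and 8.41 in RWF and 8.71 and 8.48 in vehicle WPMY-1 cells. In BPH-1 cells it read 8.55 and 8.72 under RWF and 8.40 and 8.46 under vehicle. Both RWF arrays were thus below both vehicle arrays in the stromal line and above both in the epithelial line. The differences were -0.24 in WPMY-1 (SE 0.10, adjusted p = 0.261) and 0.20 in BPH-1 cells (SE 0.10, adjusted p = 0.93), and neither passed. They were -0.12 without WPMY-1 vehicle replicate 1 and 0.12 without BPH-1 RWF replicate 2. The difference between them was -0.44 (SE 0.15, unadjusted p = 0.0162, adjusted p = 0.491). IGF1R was the 1 gene of the 10 whose arrays separated in opposite directions in the lines, as they did for 5.86% of all clusters.

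IGF2R, the receptor that clears IGF2, read 9.05 and 9.15 in RWF and 8.57 and 8.79 in vehicle WPMY-1 cells. The BPH-1 arrays read 8.48 and 8.53 under RWF and 8.31 and 8.35 under vehicle. The 4 groups did not overlap, with WPMY-1 RWF highest, then WPMY-1 vehicle, BPH-1 RWF and BPH-1 vehicle. The difference between RWF and vehicle was 0.42 in WPMY-1 (1.34-fold, SE 0.09, unadjusted p = 0.00191, adjusted p = 0.0711) and 0.17 in BPH-1 cells (SE 0.09, adjusted p = 0.958). The difference between the lines in that response was 0.25, with an interval of -0.05 to 0.55.

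**Figure D1:**
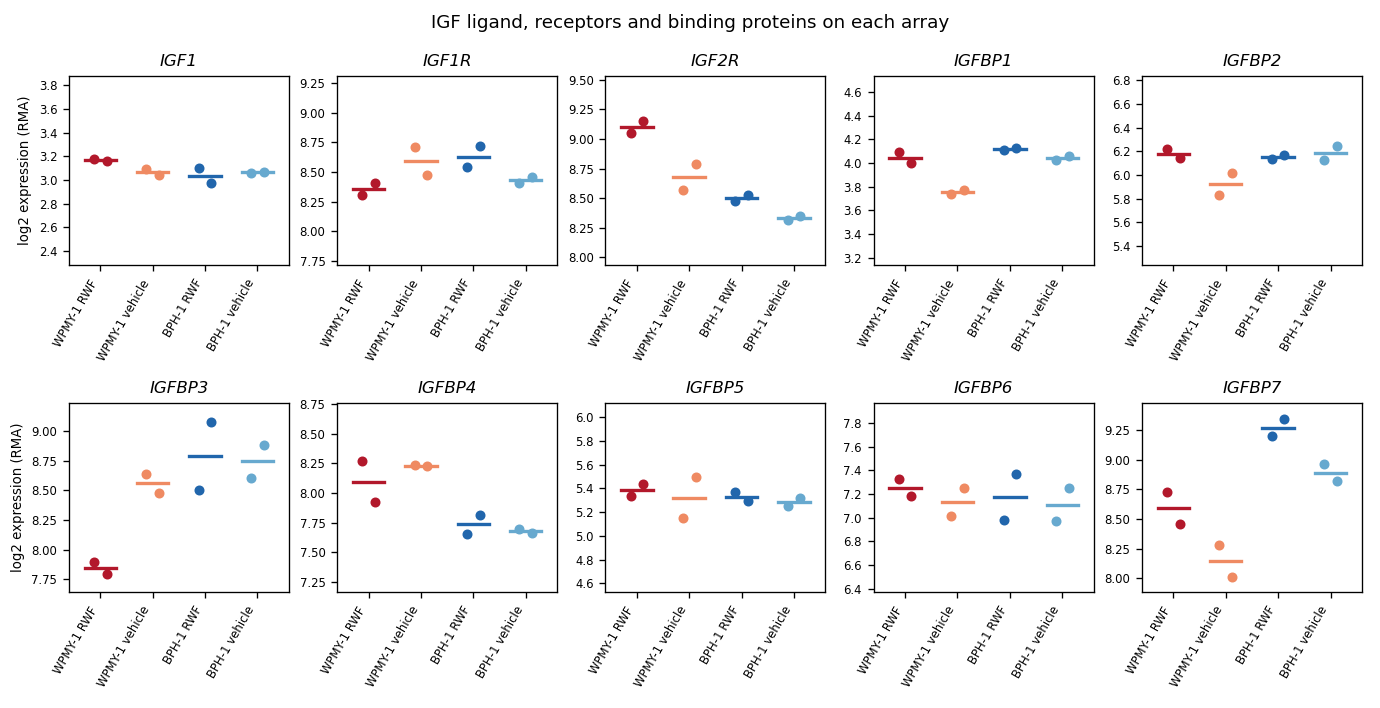
Log2 expression of the 10 genes on each array. Each panel is a gene with an axis of its own that spans at least 1.6 log2 units, the points are the 2 arrays of a group, and the line is their mean. IGFBP3 in WPMY-1 RWF cells lies at 7.80 to 7.89, below the other 6 arrays, and IGFBP7 in both BPH-1 groups lies at 8.82 to 9.35, above all WPMY-1 arrays.

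IGFBP3, the main carrier of IGFs in serum, read 7.89 and 7.80 in RWF and 8.64 and 8.48 in vehicle WPMY-1 cells. Epithelial cells gave 8.50 and 9.08 under RWF and 8.61 and 8.89 under vehicle. The WPMY-1 RWF arrays were below all 6 others, while in BPH-1 cells the groups overlapped and the RWF arrays lay 0.58 apart. The difference was -0.72 in WPMY-1 cells (1.64-fold lower, SE 0.18, unadjusted p = 0.00354, adjusted p = 0.0917) and 0.05 in BPH-1 cells (SE 0.18, adjusted p = 1). The difference between the lines in that response was -0.76 (SE 0.25, unadjusted p = 0.0155, adjusted p = 0.487). Over the fits without 1 array it ran between -1.05 and -0.48, with the BPH-1 difference between -0.24 (without RWF replicate 2) and 0.34 (without RWF replicate 1). Only IGFBP3 and IGF1R of the family had an unadjusted interaction p under 0.05, against 8.61% of all clusters, and none of the 10 passed the adjusted threshold, where 0.00592% of clusters did.

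IGFBP7, a secreted relative that binds IGFs weakly, read 8.73 and 8.46 in RWF and 8.28 and 8.01 in vehicle WPMY-1 cells. In BPH-1 cells it read 9.20 and 9.35 under RWF and 8.96 and 8.82 under vehicle. RWF arrays were above vehicle arrays in both lines, as they also were for IGF2R and IGFBP1, and 12% of all clusters separated in the same direction in both lines. The differences were 0.45 in WPMY-1 (SE 0.13, unadjusted p = 0.00715, adjusted p = 0.124) and 0.38 in BPH-1 cells (SE 0.13, unadjusted p = 0.016, adjusted p = 0.665). The difference between them was 0.07, with an interval of -0.34 to 0.48.

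IGFBP1, a carrier that the liver secretes in fasting, read 4.09 and 4.0 in RWF and 3.74 and 3.77 in vehicle WPMY-1 cells. All 8 arrays of IGFBP1, at 3.74 to 4.13, lay below every array's median over all clusters, where background cannot be told from expression. The difference was 0.29 in WPMY-1 (SE 0.08, unadjusted p = 0.00438, adjusted p = 0.1). The BPH-1 arrays read 4.11 and 4.13 under RWF and 4.02 and 4.06 under vehicle, a difference of 0.08 (adjusted p = 1). The WPMY-1 vehicle arrays were thus the lowest of the 8, and the WPMY-1 RWF arrays fell within the range of the BPH-1 arrays or just below it. RefSeq places IGFBP1 and IGFBP3 side by side on chromosome 7, and in WPMY-1 cells their differences had opposite signs.

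IGFBP2, a carrier that is abundant in serum, read 6.22 and 6.14 in RWF and 5.83 and 6.02 in vehicle WPMY-1 cells. Epithelial cells gave 6.14 and 6.17 under RWF and 6.13 and 6.24 under vehicle. RWF arrays were above vehicle arrays in the stromal line and lay between them in the epithelial line. The differences were 0.26 in WPMY-1 (SE 0.09, adjusted p = 0.188) and -0.04 in BPH-1 cells (adjusted p = 1). IGFBP5, which binds the extracellular matrix and is the neighbour of IGFBP2 on chromosome 2 in RefSeq, had 0.07 and 0.05, with overlapping arrays in both lines.

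IGFBP4, the carrier that the protease PAPP-A cuts, read 8.27 and 7.92 in RWF and 8.23 and 8.23 in vehicle WPMY-1 cells. In BPH-1 cells it read 7.65 and 7.82 under RWF and 7.69 and 7.66 under vehicle. Arrays overlapped in both lines, and the differences were -0.13 and 0.06 (adjusted p = 0.553 and 1). IGFBP6, which prefers IGF2, had 0.12 in WPMY-1 and 0.06 in BPH-1 cells, again with overlapping arrays. The difference turned its sign in WPMY-1 cells without 1 array for IGFBP4 (0.04 without RWF replicate 2) and, without vehicle replicate 1, for IGFBP5 (-0.11) and IGFBP6 (-0.00011), while none of the 3 passed in any case. In BPH-1 cells the sign turned without 1 array for IGF1, IGFBP2, IGFBP3, IGFBP4 and IGFBP6, none of which passed.

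**Figure D2:**
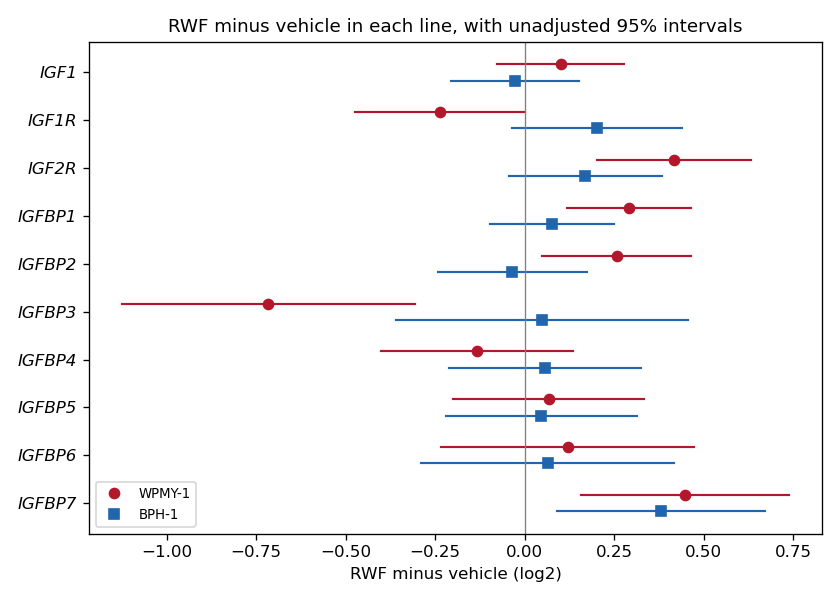
Difference between RWF and vehicle for the 10 genes in WPMY-1 (circles) and BPH-1 cells (squares), on the log2 scale, with 95% intervals from limma that are not adjusted for the number of clusters. The intervals of IGF2R, IGFBP1, IGFBP2, IGFBP7, IGFBP3 and IGF1R exclude 0 in WPMY-1 cells, that of IGFBP7 also does in BPH-1 cells, and none of the 10 genes passed after adjustment.

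The second question was whether the epithelial line responded. In BPH-1 cells none of the 10 genes passed (0.04% of all clusters did), and IGFBP7 alone had an unadjusted p under 0.05, against 5.83% of clusters. RWF and vehicle arrays did not overlap for 4 of the 10 genes, against 34.4% of all clusters and 35.3% of the 22465 genes. The 4 were IGF1R, IGF2R, IGFBP1 and IGFBP7, all with the RWF arrays above, which held for 15.3% of clusters. The median difference over the 10 genes was 0.06, beside -0.01 over all clusters.

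With 1 cluster per gene fitted, which changes both the variance estimate and the number of features adjusted over, 3 of the 10 genes passed in WPMY-1 RWF against vehicle cells, against 6.01% of the 22465 genes. They were IGF2R (adjusted p = 0.0302), IGFBP1 (adjusted p = 0.042, with all its arrays below every array's median) and IGFBP3 (adjusted p = 0.0456). Over all alternatives the adjusted p ran between 0.0298 and 0.506 for IGF2R, between 0.0415 and 0.478 for IGFBP1 and between 0.0243 and 0.469 for IGFBP3. Without either BPH-1 RWF array IGFBP3 passed as well (adjusted p = 0.0447). Beside these values, 4 of the 9 stromal markers passed with lower values under RWF in WPMY-1 cells, as 0.905% of all clusters did. The 4 were COL1A1 (-0.61), COL1A2 (-0.63), COL6A3 (-0.48) and TAGLN (-0.79), and their part in the IGFBP3 and IGF2R values was not tested.

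The third question was how the lines differed under vehicle. Between WPMY-1 and BPH-1 vehicle cells 4 of the 10 genes passed, where 16.6% of all clusters and 25.2% of the 22465 genes did. IGFBP4 and IGF2R were higher in WPMY-1, as 7.82% of clusters were, and IGFBP7 and IGFBP1 were lower, as 8.82% were. Arrays of the lines did not overlap for 6 of the 10 genes, against 53.6% of all clusters and 62.9% of the 22465 genes. The median difference over the 10 genes was 0.01, beside -0.01 over all clusters.

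IGFBP4 averaged 8.23 ± 0.01 in WPMY-1 and 7.68 ± 0.02 in BPH-1 vehicle cells (SD, n = 2 each), a difference of 0.55 (1.47-fold, SE 0.12, limma adjusted p = 0.0123). IGF2R averaged 8.68 ± 0.16 in WPMY-1 and 8.33 ± 0.03 in BPH-1 vehicle cells, a difference of 0.35 (1.27-fold, SE 0.09, adjusted p = 0.0353). IGFBP7 averaged 8.15 ± 0.19 in WPMY-1 and 8.89 ± 0.10 in BPH-1 vehicle cells, a difference of -0.75 (1.68-fold lower, SE 0.13, adjusted p = 0.00404). IGFBP1 averaged 3.75 ± 0.02 in WPMY-1 and 4.04 ± 0.03 in BPH-1 vehicle cells, a difference of -0.29 (SE 0.08, adjusted p = 0.0312). Its arrays all lay below every array's median over all clusters, where background cannot be told from expression. IGFBP7 thus had the widest gap of the family between the vehicle lines. IGFBP2 (-0.27, adjusted p = 0.0899) and IGF1R (0.16, adjusted p = 0.375) had separate arrays and did not pass, and IGF1, IGFBP3, IGFBP5 and IGFBP6 had overlapping arrays, with differences between -0.19 and 0.04.

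The IGFBP7 call held without any 1 of the 8 arrays. IGFBP4 did not pass without BPH-1 vehicle replicate 1 (adjusted p = 0.0594), BPH-1 vehicle replicate 2 (adjusted p = 0.0757) or WPMY-1 vehicle replicate 1 (adjusted p = 0.0549). IGF2R did not pass without either BPH-1 vehicle array (adjusted p = 0.158 and 0.124), either BPH-1 RWF array (adjusted p = 0.0558) or WPMY-1 vehicle replicate 2 (adjusted p = 0.163). IGFBP1 did not pass without any array of the vehicle groups (adjusted p between 0.0777 and 0.162) or of BPH-1 RWF (adjusted p = 0.0535).

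The same contrast was then taken on the RWF arrays, an alternative chosen after seeing the data, where 16.6% of all clusters passed. IGF2R was higher in WPMY-1 RWF than in BPH-1 RWF cells by 0.60 (adjusted p = 0.00275), IGFBP7 had -0.68 (adjusted p = 0.0068) and IGFBP3 had -0.95 (adjusted p = 0.00708). IGFBP3 had -0.19 between the vehicle groups (adjusted p = 0.588). IGFBP4 (0.36, adjusted p = 0.0732) and IGFBP1 (-0.08, adjusted p = 0.584) did not pass there. IGF1R had -0.28 between RWF cells and 0.16 between vehicle cells, and neither value passed. The change in each contrast between vehicle and RWF is the interaction given above, which passed for none of the genes.

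**Figure D3:**
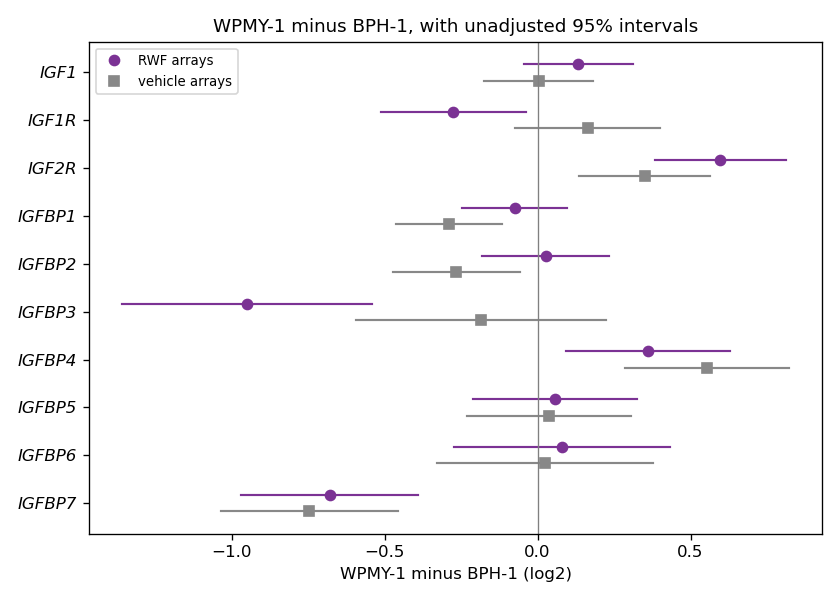
Difference between WPMY-1 and BPH-1 cells for the 10 genes on the RWF arrays (circles) and the vehicle arrays (squares), on the log2 scale, with unadjusted 95% intervals from limma. IGFBP7 and IGF2R lie on the same side of 0 under both conditions, while IGFBP3 has -0.95 under RWF and -0.19 under vehicle.

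Genes around the family were read from 6 lists, of ligands and receptors outside it, IGFBP proteases and their inhibitors, relatives that carry the IGFBP domain, IGF2 mRNA-binding proteins, receptor adaptors, and the PI3K, AKT and mTOR route. Of 68 listed genes 61 were measured by a cluster of their own. Under RWF, 3 of the 61 passed with higher and 2 with lower values in WPMY-1 cells (0.625% and 0.905% of all clusters). In either direction 1.99% of the 22465 genes passed there. Of the 61 none passed in BPH-1 cells, where 10 had higher and 4 lower values at an unadjusted p under 0.05. Such a p was found for 5.83% of all clusters and 6.34% of the 22465 genes. None of the 61 passed for the difference between the lines in that response, where 5 had positive and 5 negative values at an unadjusted p under 0.05, as 8.61% of all clusters did in either direction. The median differences were 0.07 in WPMY-1 and 0.02 in BPH-1 cells, beside 0.04 and -0.01 over all clusters.

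PAPPA, the protease PAPP-A that cuts IGFBP4, read 7.74 and 8.08 in RWF and 8.72 and 8.81 in vehicle WPMY-1 cells. The BPH-1 arrays read 5.65 and 5.73 under RWF and 5.97 and 6.17 under vehicle. Both RWF arrays were below both vehicle arrays in each line, and 12% of all clusters separated in the same direction in both lines. PAPPA fell by 0.85 in WPMY-1 cells (1.81-fold, SE 0.12, adjusted p = 0.0201), and in BPH-1 cells it had -0.38 (SE 0.12, adjusted p = 0.647).

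STC1, a secreted glycoprotein that inhibits PAPP-A, read 9.89 and 9.84 in RWF and 9.40 and 9.21 in vehicle WPMY-1 cells. Epithelial cells gave 4.09 and 4.17 under RWF and 4.69 and 4.82 under vehicle. The RWF arrays were thus above the vehicle arrays in the stromal line and below them in the epithelial line. Separation in opposite directions was found for 5.86% of all clusters. The BPH-1 RWF arrays of STC1 lay below those arrays' medians (4.57 and 4.55), where background cannot be told from expression. The BPH-1 vehicle arrays of STC1 lay just above theirs (4.55 and 4.57). STC1 rose by 0.57 in WPMY-1 cells (1.48-fold, SE 0.09, adjusted p = 0.0315) and had -0.63 in BPH-1 cells (adjusted p = 0.0986). The difference between the lines in that response was 1.20 (SE 0.13, adjusted p = 0.0776). STC2, the other inhibitor of PAPP-A, read 8.50 and 8.02 in RWF and 7.57 and 7.59 in vehicle WPMY-1 cells, and 8.02 and 7.93 in RWF and 7.48 and 7.41 in vehicle BPH-1 cells. Its differences of 0.68 (adjusted p = 0.0573) and 0.53 (adjusted p = 0.472) did not pass. STC2 is outside the rule for named genes and was chosen after its values were seen. Of the 11 genes of this list, STC1 was the 1 that passed with a higher value in WPMY-1 cells and PAPPA the 1 with a lower value. Passing or not, 7 of the 11 had a positive difference there.

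**Figure D4:**
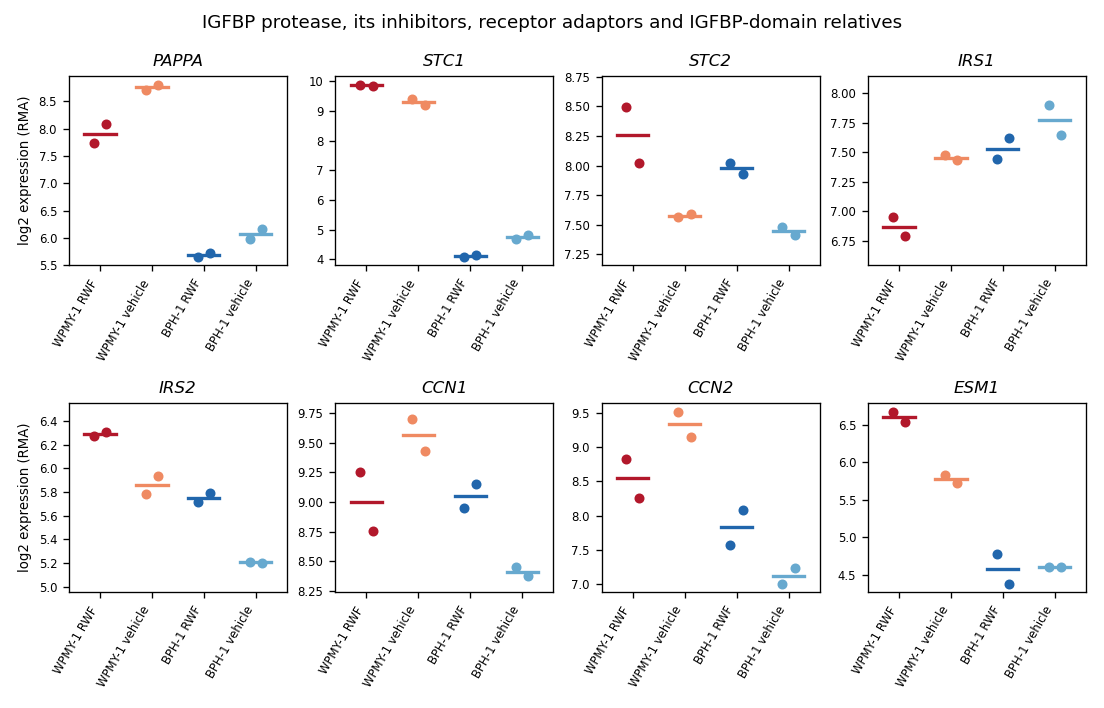
Log2 expression on each array of the protease PAPPA, its inhibitors STC1 and STC2, the adaptors IRS1 and IRS2, and CCN1, CCN2 and ESM1, which carry the IGFBP domain. Points are arrays, lines are group means, and each panel has its own axis. PAPPA in WPMY-1 cells lies at 7.74 to 8.08 under RWF and at 8.72 to 8.81 under vehicle, and CCN1 and CCN2 separate in opposite directions in the lines.

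IRS1, the adaptor that carries the signal of IGF1R and the insulin receptor to PI3K, read 6.95 and 6.79 in RWF and 7.48 and 7.43 in vehicle WPMY-1 cells. In BPH-1 cells it read 7.44 and 7.62 under RWF and 7.90 and 7.64 under vehicle. IRS1 fell by 0.58 in WPMY-1 cells (1.50-fold, SE 0.11, adjusted p = 0.048), with -0.24 in BPH-1 cells (adjusted p = 0.89). IRS2, the adaptor with the same role, read 6.27 and 6.31 in RWF and 5.78 and 5.94 in vehicle WPMY-1 cells, and 5.72 and 5.79 in RWF and 5.21 and 5.20 in vehicle BPH-1 cells. IRS2 rose by 0.43 in WPMY-1 cells (1.35-fold, SE 0.08, adjusted p = 0.0492), with 0.55 in BPH-1 cells (adjusted p = 0.101). The RWF and vehicle arrays of these 2 adaptors lay apart in both lines, with IRS1 lower and IRS2 higher under RWF. So did those of 12% of all clusters, in the same direction in both lines. For IRS1 in BPH-1 cells the nearest arrays read 7.62 and 7.64. None of the other 15 measured adaptors passed.

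Among the 8 relatives with an IGFBP domain, ESM1, a secreted proteoglycan, read 6.68 and 6.53 in RWF and 5.83 and 5.72 in vehicle WPMY-1 cells and rose by 0.83 (1.78-fold, SE 0.13, adjusted p = 0.027). In BPH-1 cells it had -0.02 (adjusted p = 1). CCN2, a matricellular protein also called CTGF, read 8.83 and 8.26 in RWF and 9.52 and 9.15 in vehicle WPMY-1 cells, and 7.58 and 8.08 in RWF and 7.0 and 7.24 in vehicle BPH-1 cells. CCN1 followed the same order, with -0.56 in WPMY-1 (adjusted p = 0.132) and 0.64 in BPH-1 cells (adjusted p = 0.451), beside -0.79 (adjusted p = 0.129) and 0.71 (adjusted p = 0.629) for CCN2. For both, RWF arrays were below vehicle arrays in the stromal line and above them in the epithelial line, an opposite separation that 5.86% of all clusters had. The differences between the lines of -1.20 and -1.50 did not pass (adjusted p = 0.254 and 0.3).

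The calls of the 5 genes around the family did not all hold with 1 array fewer, while the differences kept their direction and ran between -1.02 and -0.68 for PAPPA, 0.47 and 0.66 for STC1, 0.76 and 0.90 for ESM1, -0.66 and -0.50 for IRS1, and 0.35 and 0.51 for IRS2. PAPPA did not pass without WPMY-1 vehicle replicate 1, vehicle replicate 2 or RWF replicate 1 (adjusted p = 0.0829, 0.0575 and 0.0903). STC1 and IRS1 passed in none of the 8 fits that left out an array (adjusted p between 0.0534 and 0.149 for STC1, and between 0.0582 and 0.174 for IRS1). ESM1 passed only without a BPH-1 RWF array (otherwise between 0.0558 and 0.137), and IRS2 only without WPMY-1 vehicle replicate 2 (otherwise between 0.0762 and 0.184).

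Between the vehicle lines, 15 of the 61 genes passed with higher and 9 with lower values in WPMY-1 cells. Such calls were made for 7.82% and 8.82% of all clusters, and for 25.2% of the 22465 genes in either direction. Among proteases and inhibitors 4 passed with higher and 2 with lower values. STC1 had 4.54, ADAM12, a protease of IGFBP3 and IGFBP5, 3.65, and PAPPA 2.69 (adjusted p = 2.77e-06 for PAPPA), while the matrix protease MMP7 had -2.83. The WPMY-1 vehicle arrays of MMP7, at 4.20 and 4.07, lay below those arrays' medians, where background cannot be told from expression. The BPH-1 vehicle arrays of STC1, at 4.69 and 4.82, lay just above those arrays' medians. Of the relatives with an IGFBP domain, CCN2 had 2.22, ESM1 1.18 and CCN1 1.15, and no member passed with a lower value. Passing or not, 7 of the 8 had a positive difference, and CCN6 averaged 4.34 in WPMY-1 and 4.46 in BPH-1 vehicle cells. IGF2BP1 (0.58) and IGF2BP3 (0.44), which bind IGF2 mRNA, were higher in WPMY-1, and IGF2BP2 had 0.20 and did not pass.

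Of the ligands and receptors outside the family, 3 passed with lower values in WPMY-1 vehicle cells and none with higher values. INSR, the insulin receptor, had -0.54 (adjusted p = 0.00982), the IGF-like ligand IGFL1 had -0.68 and the binding protein relative IGFBPL1 had -0.53. Among the adaptors 4 passed with higher and 3 with lower values. IRS2 at 0.66 and GRB10 at 0.57 were higher. SOCS2, a feedback inhibitor of growth hormone signalling, at -1.13 and GRB14 at -0.62 were lower. In the PI3K route TSC1, which restrains mTOR, had 0.68 and AKT1 0.46, while the PI3K subunit PIK3CB had -0.49, and the other 11 measured genes did not pass.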

How the data were processed

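Total RNA of both lines, under RWF extract or vehicle, was profiled on Affymetrix Human Transcriptome Array 2.0 chips, with 2 arrays in each of 4 groups taken from the labels. The values the authors deposited are log2 expression, with 1 for each transcript cluster on each array. RMA, named without a version in the submitters' processing notes, corrects background, normalises arrays to each other and summarises probes, so a shift of all genes one way would be partly removed. The genome build of the clusters is not given in the sources used here. The number of arrays limits the precision.

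Clusters were named from the platform annotation, which gave 23781 of them 1 symbol, 1543 several and 42204 none. A gene stands for its brightest cluster. Differences were tested with limma 3.58.1 in R 4.3.3, as 4 group means over 8 arrays with 4 residual and 4.34 prior degrees of freedom, and adjusted by Benjamini-Hochberg over 67528 clusters. The step was tested on simulated data. Python 3.11.15 and matplotlib 3.10.9 were used for the plots. Motifs were searched on both strands of the RefSeq windows.

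The 10 genes, the pathway lists and the marker lists were chosen with earlier results of these data known. All 10 genes are named, and of each pathway list the called members, up to the 4 with the largest difference per comparison. Alternatives were quantile normalisation, median centring, a fit over the 33764 brighter clusters, the replicate number as a block, robust variances with a trend, the comparison's own arrays, the methods' t-test, 1 cluster per gene or the mean over its clusters, and fits without each of the 8 arrays, in which the lone array of a group is taken to vary as the other groups do.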

Additional observations from a re-analysis of the deposited data

Results flagged for a closer look

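For 6 of the 71 genes read, the 10 of the family and 61 around it, the RWF and vehicle arrays lay apart in both lines and in opposite directions. This is 8.45% of them, beside 5.86% of all clusters, and the test of the difference between the lines itself was passed by none of the 6. IGF1R, the signalling receptor of the family, had a difference between the lines of -0.44 on the log2 scale (response in WPMY-1 minus response in BPH-1, limma adjusted p = 0.491). STC1, an inhibitor of the IGFBP4 protease, had 1.20 (adjusted p = 0.0776). Its BPH-1 RWF arrays lay below those arrays' medians, where background cannot be told from expression. The protease ADAM12 had -0.60 (adjusted p = 0.401), CCN1 -1.20 (adjusted p = 0.254) and CCN2 -1.50 (adjusted p = 0.3). The protease ADAM28, which is outside the rule for named genes and was chosen after its values were seen, had 0.43 (adjusted p = 0.494). The arrays of ADAM28, at 3.21 to 4.38, all lay below every array's median over all clusters, where background cannot be told from expression.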

How the results depend on the processing

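Of the 10 genes, 0 passed in WPMY-1 RWF against vehicle cells. The count was 1 with dim clusters left out (IGF2R, adjusted p = 0.0413), 3 with 1 cluster per gene and 3 with the mean of a gene's clusters (IGF2R, IGFBP1 and IGFBP3 in both), and 0 to 1 over the fits without 1 array (IGFBP3 in 2 of 8). In BPH-1 cells and for the difference between the lines in the response it was 0 under every alternative run. Between the vehicle lines 4 passed, 2 with the comparison's own arrays only, 0 with the methods' t-test after Benjamini-Hochberg (3 at an unadjusted p under 0.05), 5 with 1 cluster per gene and 5 with the mean of a gene's clusters (IGFBP2 gained, adjusted p = 0.0401 and 0.0398), and 1 to 4 over the fits without 1 array. In WPMY-1 and in BPH-1 cells the methods' t-test gave 0, with 2 and 1 at an unadjusted p under 0.05. The methods' t-test and the fit to a comparison's own arrays were not run for the difference between the lines in the response, which takes all arrays. Of the 61 pathway genes 5 passed under RWF in WPMY-1 cells, 0 to 4 over the fits without 1 array and 0 (the methods' t-test) to 10 over the other alternatives. Of all clusters 1033 passed there, against 205 to 1042 and 0 to 1934 in the same ranges.

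With the replicate number as a block the count in WPMY-1 RWF against vehicle cells was 1 (IGFBP3, adjusted p = 0.0243). Between the vehicle lines IGFBP1 was lost under it (adjusted p = 0.0714), and IRS1 (adjusted p = 0.0605) and IRS2 (adjusted p = 0.0657) were lost in WPMY-1 cells. The difference between replicates 1 and 2 was taken for each cluster in each group. Over all clusters, this difference in RWF arrays correlated with that in vehicle arrays at 0.125 in BPH-1 and -0.0256 in WPMY-1 cells. The replicate differences of the vehicle arrays of both lines correlated at 0.27. Each group gives only 1 such difference per cluster. The labels give no pairing beyond a shared number. The block was set within each line, so it does not cover a deviation that the lines share.

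CCN1 had -0.0458 between the lines on the RWF arrays, chosen after seeing the data, against 1.15 on the vehicle arrays. Median centring left 24.7% of called clusters higher under RWF in WPMY-1 cells, against 40.9% as deposited. IRS2 did not pass there under it (adjusted p = 0.0661), nor did IRS1 (adjusted p = 0.0547) and IRS2 (adjusted p = 0.062) after quantile normalisation. Between the vehicle lines IGF2R was lost after quantile normalisation (limma adjusted p = 0.0645) and IGFBP1 under median centring (adjusted p = 0.0549). Over all alternatives, the contrast on the RWF arrays among them, 945 single-gene values kept their direction and side of the threshold. A further 98 lost the call, 13 gained it and 32 without a call turned their sign. The 1 called value that turned, that of CCN1, did so on the RWF arrays, a change of groups and not of processing. Many alternatives change only the variance estimate, the adjustment or arrays outside the contrast. The difference is the same in those, so its sign could not turn and the 945 does not measure robustness. Of the family, IGF1 and IGFBP1 are among the dim clusters, where signal over background limits what can be read.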
